A study of Mus musculus with 6 samples.

Results

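The IL-6 family genes described here are 10 genes picked by symbol: the cytokines Il6, Lif, Il11 and Clcf1, the receptor chains Il6ra, Il11ra1, Osmr, Lifr and Il6st, and the feedback inhibitor Socs3. All 10 were among the 17419 genes of the deposited table, and all 10 passed the filter on low counts that left 13264 genes for testing. RNA came from fibroblasts of the tendon enthesis, where tendon joins bone, of 3 samples labelled diseased and 3 labelled un-diseased. All were SKG mice, a strain with a Zap70 mutation that is prone to autoimmune arthritis; age, sex and any agent that induced disease are not given in the sources used here. The sample titles carry the codes NTS for diseased and UN for un-diseased without explaining them, and number each group 1 to 3. Nothing in the labels says if the 3 samples of a group are separate mice or cultures, so every p-value speaks only to the spread between these samples.

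Cytokines of this family signal through receptor complexes that share the transmembrane chain encoded by Il6st. IL-6 binds Il6ra, IL-11 binds Il11ra1 and LIF binds Lifr, each then engaging the Il6st product. Oncostatin M signals through Osmr together with the Il6st product. The complexes activate JAK kinases and the transcription factor STAT3. STAT3 induces Socs3, whose protein binds the receptor complex and shuts the signal down. In connective tissue, fibroblasts make IL-6 and LIF when stimulated by inflammatory cytokines, and respond to oncostatin M through Osmr.

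The labelled cell type was checked first. Of 13 listed fibroblast genes, Col1a2 lay between 18765 and 27850 CPM in diseased and between 14137 and 21970 CPM in un-diseased samples. CPM is the estimated count divided by the TMM-scaled library total, in the usual counts-per-million unit. Pdgfra, a receptor typical of fibroblasts, had 920.9 to 954.4 CPM in diseased and 911.3 to 1221 CPM in un-diseased samples. Not all of the list was abundant. Scx had 5.29 to 6.16 CPM in diseased and 1.44 to 3.13 CPM in un-diseased samples. Mkx had 5.13 to 7.16 CPM in diseased and 3.26 to 3.44 CPM in un-diseased samples. Macrophage RNA was present in both groups: 18 listed markers summed to 210.7 to 562.1 CPM in diseased and 45.7 to 276.3 CPM in un-diseased samples. With the replicate number as a block, edgeR called 17 of 18 higher, where 10.5% of tested genes were called higher. Without the block it called 0 of 18 higher, where the share was 1.61%. Neutrophil markers summed to 59.6 to 176.8 CPM in diseased and 8.61 to 218.6 CPM in un-diseased samples, and no marker of these 2 lists was at 0 in all samples. Pericyte markers summed to 186.1 to 257.1 CPM in diseased and 220.8 to 256.8 CPM in un-diseased samples. Endothelial markers summed to 49 to 67.4 CPM in diseased and 59.6 to 85.3 CPM in un-diseased samples. Lymphocyte markers summed to 3.67 to 11.8 CPM in diseased and 4.69 to 11.5 CPM in un-diseased samples. In bulk RNA, fewer cells of a type and less RNA per cell cannot be told apart. Un-diseased replicate 1 stood apart in heat shock genes: Hspa1a had 1455 CPM there, against 167.8 and 236 CPM in un-diseased replicates 2 and 3 and 378.2 to 926.7 CPM in diseased samples.

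The 10 genes were all lower on average in diseased samples, and the calls depended on the tool and on whether same-numbered samples were paired. In the quasi-likelihood test of edgeR, adjusted by the method of Benjamini and Hochberg over all genes, 0 of 10 passed the threshold of 0.05 in either direction, where 1.61% of tested genes were called higher and 2.13% lower. At an unadjusted p under 0.05, 4 of 10 were lower, against 14.4% of tested genes. DESeq2 called 3 of 10 lower, Osmr, Il6ra and Lifr, where it called 6.65% of all genes lower. The authors' deposited table gave a q-value under 0.05 to Il6ra and Osmr, 2 of 10, where 4.52% of its genes had one with a lower level in diseased.

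Samples with the same number deviated together from their group means, with correlations over 13264 genes of 0.49, 0.58 and 0.28 for numbers 1, 2 and 3, so the number was also fitted as a block. Between samples with different numbers the correlations ran from -0.53 to 0.14. The labels do not say what same-numbered samples share, so the block rests on the numbering and on these same data. With that block edgeR called 6 of 10 lower and 0 higher, where 13.3% of tested genes were called lower and 10.5% higher. The 6 that fell were Il6, Il6ra, Osmr, Lif, Il11 and Lifr. DESeq2 with the block also called 6 of 10 lower, against 10.6% of genes. The other 4 members, Clcf1, Il11ra1, Il6st and Socs3, did not pass in either fit. The median log2 fold change (diseased minus un-diseased, here and throughout) of the 10 was -0.71, against 0.02 over all tested genes. Within same-numbered pairs 9 of 10 members were lower in diseased in all 3, as were 30.1% of tested genes.

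**Figure D1:**
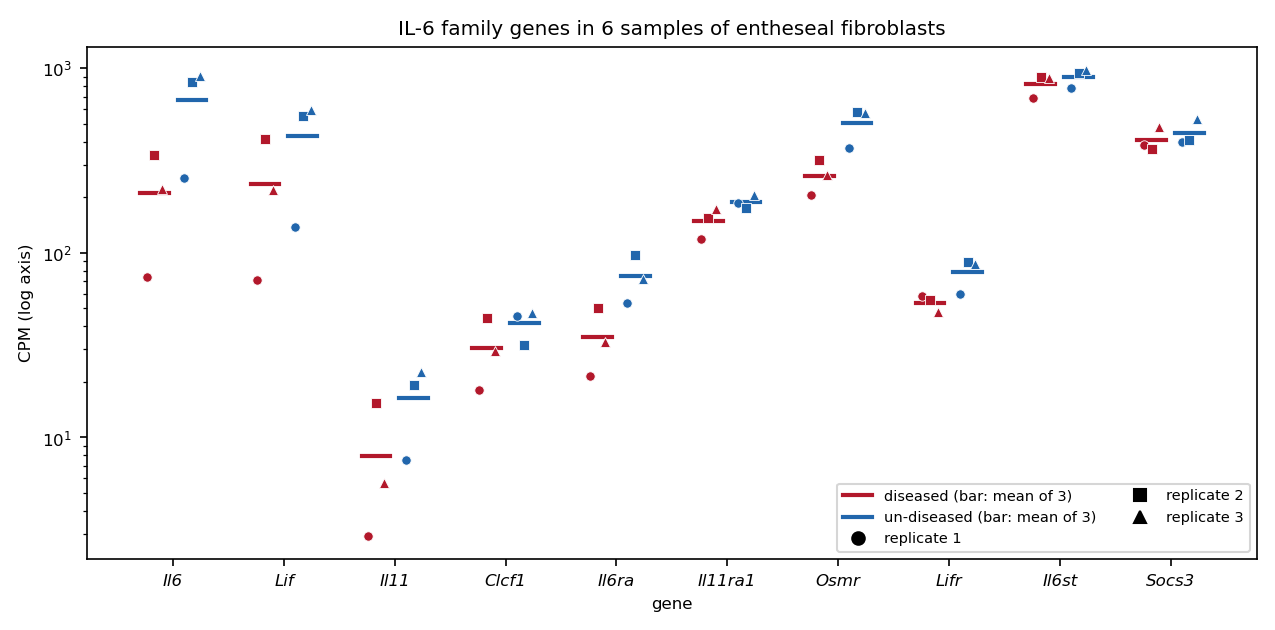
CPM on a log axis of the 10 IL-6 family genes in 3 diseased and 3 un-diseased samples; points are samples, shaped by replicate number, and bars are group means. The groups do not overlap for Il6ra, Il11ra1, Osmr and Lifr, and replicate 1 is lowest in both groups for Il6, Lif and Il11.

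Il6 and Lif had the highest levels per exon length among the 4 cytokines, and the order of their samples was the same within each group. Their promoter windows are therefore printed with one of Socs3, the feedback gene, whose level moved little. The sequences are RefSeq promoter windows of GRCm38.p6, from 250 bases before to 50 bases after an annotated start, on the strand of the gene. Capitals mark the motifs found. The Il6 window lies at chr5:30012864-30013163 on the plus strand, the Lif window at chr11:4257318-4257617 on the plus strand and the Socs3 window at chr11:117969317-117969616 on the minus strand. The Il6 and Lif windows span the outer starts of their genes. That of Socs3 lies inside the gene span, 117966079 to 117970336, at an annotated start that is not the outermost.
Il6: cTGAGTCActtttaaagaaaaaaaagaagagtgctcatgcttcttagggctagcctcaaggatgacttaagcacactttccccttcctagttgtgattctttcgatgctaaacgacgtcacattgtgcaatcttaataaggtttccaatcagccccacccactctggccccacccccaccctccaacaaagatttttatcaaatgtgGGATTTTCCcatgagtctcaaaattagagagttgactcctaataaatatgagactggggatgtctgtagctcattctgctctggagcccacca
Lif: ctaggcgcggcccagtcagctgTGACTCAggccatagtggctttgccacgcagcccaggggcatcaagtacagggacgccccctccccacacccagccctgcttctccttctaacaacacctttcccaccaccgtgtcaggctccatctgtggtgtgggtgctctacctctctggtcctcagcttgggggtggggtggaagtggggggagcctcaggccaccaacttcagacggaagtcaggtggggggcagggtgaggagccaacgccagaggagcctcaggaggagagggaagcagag
Socs3: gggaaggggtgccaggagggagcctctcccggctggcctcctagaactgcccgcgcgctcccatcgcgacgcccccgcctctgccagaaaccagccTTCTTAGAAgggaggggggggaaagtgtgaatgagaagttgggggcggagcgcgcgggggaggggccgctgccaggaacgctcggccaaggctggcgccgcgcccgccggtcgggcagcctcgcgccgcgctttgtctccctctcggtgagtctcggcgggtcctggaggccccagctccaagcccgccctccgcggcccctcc

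In 12 such windows of 9 members, 4 motifs were searched on both strands: the AP-1 motif TGANTCA, the NF-kB motif GGANTTTCC, the STAT motif TTCNNNGAA and the CRE motif TGACGTCA. The first capitals in Il6 and the capitals in Lif are AP-1 matches, at -249 and -228 from the start. An AP-1 match was also present in a window of Il11 (TGAGTCA at -98) and in that of Osmr (TGATTCA at 4, after the start). These windows of Il11 and Osmr lie inside the spans of their genes. Of 32851 RefSeq promoter windows, 7.81% hold an AP-1 match. The second capitals in Il6 are an NF-kB match at -43, a motif in 1.25% of windows. The capitals in Socs3 are a STAT match at -154 from the start of that window, which lies inside the gene span. The motif was found in 8.3% of windows, and in no other member's window. No CRE match was found in the 12, against 1.79% of windows. The matches describe letters only, and no binding was measured.

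Il6, the founding cytokine of the family (gene 16193, chromosome 5, 30013114 to 30019975, GRCm38), had 74.1, 338.2 and 220.2 CPM in diseased replicates 1, 2 and 3, against 252.9, 844.5 and 907 CPM in un-diseased replicates 1, 2 and 3. The groups overlapped, because un-diseased replicate 1 lay below diseased replicate 2, but each diseased sample was below its same-numbered partner. Group levels were 210.8 ± 132.3 CPM in diseased and 668.1 ± 360.9 CPM in un-diseased samples (mean ± SD, n = 3 each). Without the block the log2 fold change was -1.66 (SE 0.62, adjusted p = 0.142 by edgeR). With it the change was -1.71 (SE 0.16, adjusted p = 0.00115 by edgeR), and leaving out any 1 pair gave -1.54 to -1.91 with adjusted p from 3.2e-05 to 0.0174 by edgeR.

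Lif, a cytokine that signals through Lifr and Il6st (gene 16878, chromosome 11, 4257568 to 4272514), had 71.3, 412.8 and 218.8 CPM in diseased replicates 1, 2 and 3, against 138.5, 549.9 and 595.3 CPM in un-diseased replicates 1, 2 and 3. The order of samples within each group was that of Il6: replicate 1 was lowest in both groups, and in diseased samples replicate 2 was highest. The difference was -0.87 (SE 0.69, adjusted p = 0.423 by edgeR) without the block and -0.94 (SE 0.18, adjusted p = 0.0108 by edgeR) with it. Lif thus fell with the block, by 0.96, 0.41 and 1.44 on the log2 scale within pairs 1, 2 and 3, though leaving out pair 3 ended the call (adjusted p = 0.0644 by edgeR).

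Il11, a cytokine of fibroblasts linked to matrix production, was low, at 2.93, 15.3 and 5.67 CPM in diseased replicates 1, 2 and 3, against 7.56, 19.2 and 22.6 CPM in un-diseased replicates 1, 2 and 3. Its groups overlapped, and its samples followed the order of Lif in both groups. Il11 fell with the block (log2 fold change -1.19, SE 0.28, adjusted p = 0.0217 by edgeR) and did not pass without it (adjusted p = 0.288 by edgeR). Leaving out pair 1 (adjusted p = 0.0589 by edgeR) or pair 3 (adjusted p = 0.135 by edgeR, with a change of -0.75) ended the call.

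Replicate 1 was lowest in both groups for 6 of 10 members (Il6, Lif, Il11, Il6ra, Osmr and Il6st), as it was for 21.8% of tested genes. Clcf1, which encodes the cytokine CLCF1, did not follow: it had 18.1, 44.6 and 29.4 CPM in diseased replicates 1, 2 and 3, against 45.7, 31.7 and 47.2 CPM in un-diseased replicates 1, 2 and 3. Its pair differences were -1.33, 0.49 and -0.68, so pair 2 ran against the other 2. The blocked change of -0.51 (SE 0.29) had an adjusted p of 0.220 by edgeR, and without pair 2 the change was -1.01 with an adjusted p of 0.00183 by edgeR. GENCODE M21 places another protein-coding gene over Clcf1 on the same strand, so its reads may be shared.

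**Figure D2:**
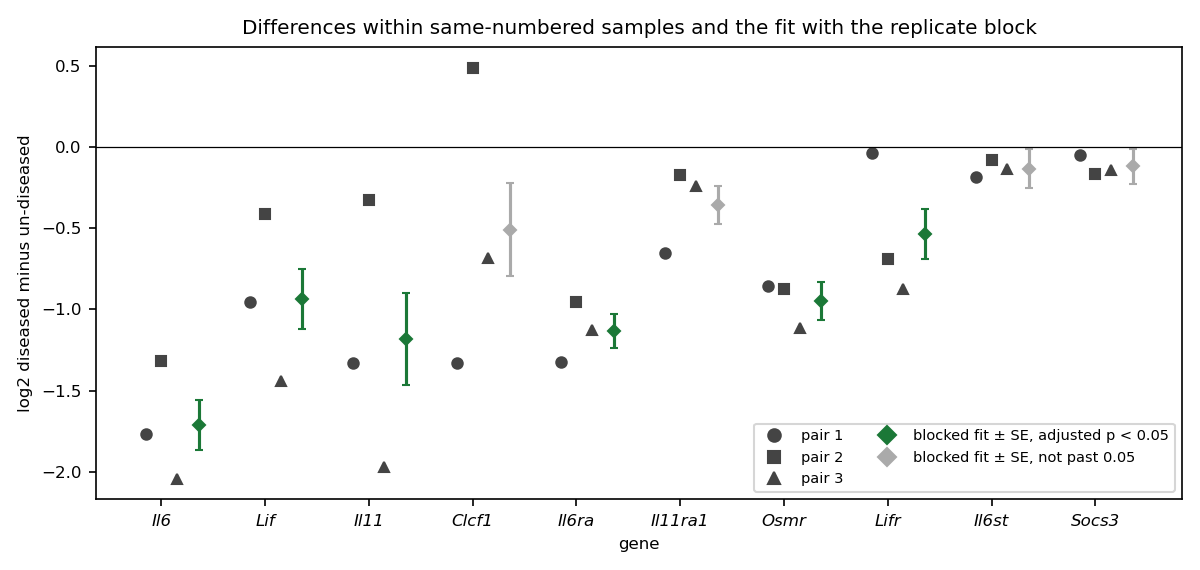
Log2 differences, diseased minus un-diseased, for each member within same-numbered samples (dark symbols) and from the edgeR fit with the replicate block (diamonds, bars are SE). All 3 pairs lie below 0 for every member but Clcf1, whose pair 2 is at 0.49.

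Among the receptor chains, Osmr and Il6ra were lower in diseased samples without overlap. Osmr, the receptor chain specific to oncostatin M and IL-31 signalling (gene 18414, chromosome 15, 6813568 to 6874968), had 204.5, 317.5 and 262.8 CPM in diseased replicates 1, 2 and 3, against 369.6, 581.7 and 569.7 CPM in un-diseased replicates 1, 2 and 3. Every diseased sample was below every un-diseased one, as for 4 of 10 members and 15.4% of tested genes. The log2 fold change was -0.95 (SE 0.23, adjusted p = 0.0625 by edgeR) without the block and -0.95 (SE 0.12, adjusted p = 0.00236 by edgeR) with it. Of the 10 members Osmr came nearest to the threshold without the block; without un-diseased replicate 1 it passed, at -1.15 (adjusted p = 0.0319 by edgeR), and with upper-quartile scaling the adjusted p was 0.0462 by edgeR. The authors' deposited table gave Osmr a q-value of 0.00167 and Il6ra one of 0.0148.

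Il6ra, the chain that binds IL-6 (gene 16194, chromosome 3, 89869324 to 89913196), had 21.4, 50.5 and 33.1 CPM in diseased replicates 1, 2 and 3, against 53.7, 97.8 and 72.3 CPM in un-diseased replicates 1, 2 and 3. The highest diseased sample stayed just below the lowest un-diseased one. Il6ra fell with the block (log2 fold change -1.13, SE 0.10, adjusted p = 0.00117 by edgeR), and without it the change was -1.09 (SE 0.33, adjusted p = 0.0993 by edgeR). Pair differences lay between -1.32 and -0.95, and the blocked call held without each pair, with adjusted p up to 0.0204 by edgeR. Macrophages also express Il6ra, and their summed markers were higher in the diseased sample of each pair; their part in the level of Il6ra was not tested. An antisense gene of GENCODE M21 overlaps Il6ra by 281 bases, and without stated strand its reads cannot be told apart from those of Il6ra.

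Lifr, the LIF-binding chain, had 58.3, 55.5 and 47.5 CPM in diseased replicates 1, 2 and 3, against 59.7, 89.5 and 87.3 CPM in un-diseased replicates 1, 2 and 3. The groups did not overlap, but pair 1 differed by only -0.04, against -0.69 in pair 2 and -0.88 in pair 3. Lifr fell with the block (-0.53, SE 0.15, adjusted p = 0.0404 by edgeR) and did not pass without it (-0.55, adjusted p = 0.105 by edgeR). Leaving out pair 2 (adjusted p = 0.110 by edgeR) or pair 3 (0.235) ended that call, and without the block Lifr passed when un-diseased replicate 1 was left out (-0.72, adjusted p = 0.0319 by edgeR).

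Il11ra1, the IL-11-binding chain, had 118.5, 155 and 173.5 CPM in diseased replicates 1, 2 and 3, against 186.7, 174.9 and 205.1 CPM in un-diseased replicates 1, 2 and 3. The groups did not overlap, though diseased replicate 3 and un-diseased replicate 2 nearly met. Its blocked change was -0.36 (SE 0.12, adjusted p = 0.0618 by edgeR) and missed the threshold. The estimated counts of Il11ra1 were not whole, and its near-identical copy Il11ra2 was listed beside it at 0.29 to 0.43 CPM in diseased and 0.37 to 0.69 CPM in un-diseased samples, so reads shared between the copies make both values uncertain. GENCODE M21 also places Galt on the same strand and Dctn3 on the opposite strand over Il11ra1.

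Il6st, the shared signalling chain (chromosome 13, 112464070 to 112506860), had the smallest fitted change of the 5 receptor chains. It had 685.8, 890.5 and 886.4 CPM in diseased replicates 1, 2 and 3, against 779.2, 942.8 and 973.3 CPM in un-diseased replicates 1, 2 and 3. Its groups overlapped, and its change was -0.13 (SE 0.12, adjusted p = 0.440 by edgeR) with the block. Socs3, the feedback inhibitor (gene 12702, chromosome 11, 117966079 to 117970336), had 384.3, 365.1 and 480.2 CPM in diseased replicates 1, 2 and 3, against 398.6, 409.1 and 530.7 CPM in un-diseased replicates 1, 2 and 3. Replicate 3 was highest in both groups, whereas Il6 was highest in diseased replicate 2, and the blocked change was -0.12 (SE 0.11, adjusted p = 0.441 by edgeR). Without the block Socs3 stood at -0.12 (SE 0.17) and, when un-diseased replicate 3 was left out, at 0.021 (adjusted p = 0.952 by edgeR).

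Levels of different genes were set side by side as CPM per kilobase of merged exons of GENCODE M21, which counts every annotated exon and so understates genes with long rarely used ones. In diseased samples the order of mean levels was Socs3 at 141.8, Il6 at 86.8, Il6st at 74, Lif at 53.9, Il11ra1 at 33.3, Osmr at 21.6, Clcf1 at 8.06, Lifr at 4.99, Il6ra at 4.05 and Il11 at 3.83 CPM per kilobase. In un-diseased samples it was Il6 at 275.2, Socs3 at 154.3, Lif at 98.4, Il6st at 81, Il11ra1 at 42.3, Osmr at 41.9, Clcf1 at 10.9, Il6ra at 8.63, Il11 at 7.9 and Lifr at 7.32 CPM per kilobase. Neighbours whose sample ranges did not overlap were Il11ra1 and Osmr, and Osmr and Clcf1, in diseased samples, and Socs3 and Lif, Il6st and Il11ra1, and Osmr and Clcf1 in un-diseased samples. All other neighbours overlapped in range, Il6 with Socs3 among them in both groups. The ligand-binding chains Il6ra and Lifr lay below the shared chain Il6st per length in every sample.

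**Figure D3:**
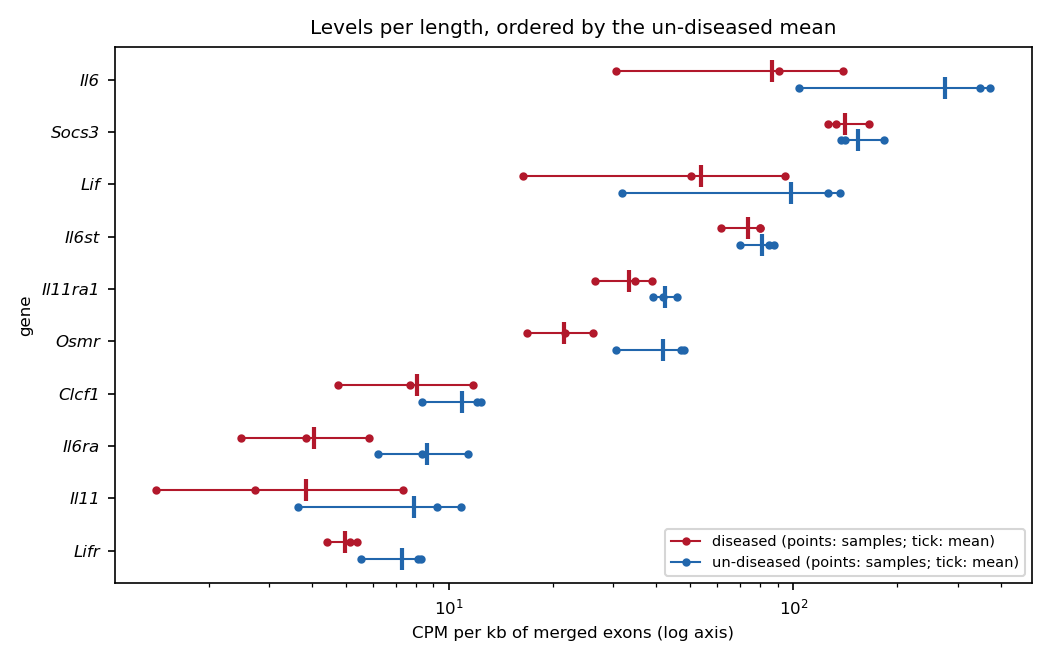
CPM per kilobase of merged exons (log axis) of the 10 members in diseased (upper line of each pair) and un-diseased samples (lower line); points are samples, ticks are group means. Il6 and Lif span the widest ranges among the 4 highest genes, and Il6ra and Lifr lie at 4.05 and 4.99 in diseased and 8.63 and 7.32 in un-diseased samples.

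Of 12 other ligands and receptors of the family, 10 were in the table and 7 were tested. Without the block 1 rose and 2 fell, where 1.61% of tested genes were called higher and 2.13% lower. With it 3 rose and 2 fell, where the shares were 10.5% and 13.3%. Their median log2 fold change was 0.84, against 0.02 over all tested genes. Cntfr, the receptor chain for CNTF, was among those that fell, with 4.55, 3.67 and 5.34 CPM in diseased replicates 1, 2 and 3, against 10.8, 8.83 and 10.3 CPM in un-diseased replicates 1, 2 and 3. The groups did not overlap, and Cntfr fell by 1.14 on the log2 scale (SE 0.19, adjusted p = 0.0277 by edgeR).

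Il31ra, which forms the IL-31 receptor together with the product of Osmr, was low throughout. It had 0.39, 0.12 and 0.38 CPM in diseased replicates 1, 2 and 3, against 1.67, 2.44 and 1.8 CPM in un-diseased replicates 1, 2 and 3, and fell by 2.66 (SE 0.42, adjusted p = 0.0268 by edgeR). A count of 3 was worth 0.147 to 0.188 CPM, so diseased replicate 2 was below the limit that a count of 0 allows, a limit that covers counting error only. Without the block the calls of Cntfr and Il31ra held only without un-diseased replicate 1 (adjusted p = 0.0408 and 0.0347 by edgeR). They were lost without any other single sample, with adjusted p from 0.0515 to 0.132. With the block they held without each pair, with adjusted p up to 0.0407 by edgeR for Il31ra.

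Osm, oncostatin M, the ligand of Osmr and a product of macrophages and neutrophils, had 4.99, 7.85 and 2.91 CPM in diseased replicates 1, 2 and 3, against 1.2, 3.69 and 0.37 CPM in un-diseased replicates 1, 2 and 3. The groups overlapped, and within each pair the diseased sample was higher. Osm rose with the block (1.78, SE 0.32, adjusted p = 0.00786 by edgeR) and not without it (1.58, SE 0.70, adjusted p = 0.188 by edgeR). The order of its samples was that of the macrophage marker sums, which were 383.6, 562.1 and 210.7 CPM in diseased replicates 1, 2 and 3, against 122.9, 276.3 and 45.7 CPM in un-diseased replicates 1, 2 and 3; their part in Osm was not tested. The gene of cardiotrophin, Ctf1, was under 2 CPM in every sample and also rose with the block (1.51, adjusted p = 0.0430 by edgeR), but not without pair 2 (0.116) or pair 3 (0.222).

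Downstream of the receptors, 22 genes of kinases, STAT factors, phosphatases, SOCS proteins, receptor-shedding proteases and others (Pias3, Gab1, Grb2 and Sos1) were tested. Without the block edgeR called 0 of them in either direction. An unadjusted p under 0.05 was found for 8, as for 27.8% of tested genes, while DESeq2 gave 1 higher and 4 lower, calling 4.79% of all genes higher and 6.65% lower. With the block 2 rose, near the share of 10.5% over all tested genes, and 9 fell, against 13.3%. The median change was -0.23, against 0.02 over all tested genes. Jak2, a receptor-bound kinase, had 119.7, 249.1 and 194.7 CPM in diseased replicates 1, 2 and 3, against 205.9, 335.9 and 318.3 CPM in un-diseased replicates 1, 2 and 3. Replicate 1 was again lowest in both groups. With the block it fell by 0.64 (SE 0.11, adjusted p = 0.00713 by edgeR), and without pair 3 the adjusted p was 0.0539. Socs5, another SOCS family gene, fell with the block by 1.02 (adjusted p = 0.00689 by edgeR). Ptpn6, a phosphatase gene of blood cells, rose with the block by 1.43 (adjusted p = 0.00549 by edgeR); macrophage markers were higher in the same samples, and their part was not tested.

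Jak1 and Stat3 are added here after their values were seen. Stat3, the main factor of the pathway, had 317.3, 446.1 and 394.9 CPM in diseased replicates 1, 2 and 3, against 494.7, 595.7 and 591.6 CPM in un-diseased replicates 1, 2 and 3, without overlap. With the block Stat3 fell by 0.55 (SE 0.12, adjusted p = 0.0137 by edgeR) and Jak1, the principal kinase on Il6st, by 0.56 (SE 0.13, adjusted p = 0.0195 by edgeR). Without pair 3 neither call held (adjusted p = 0.0703 and 0.0984 by edgeR).

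**Figure D4:**
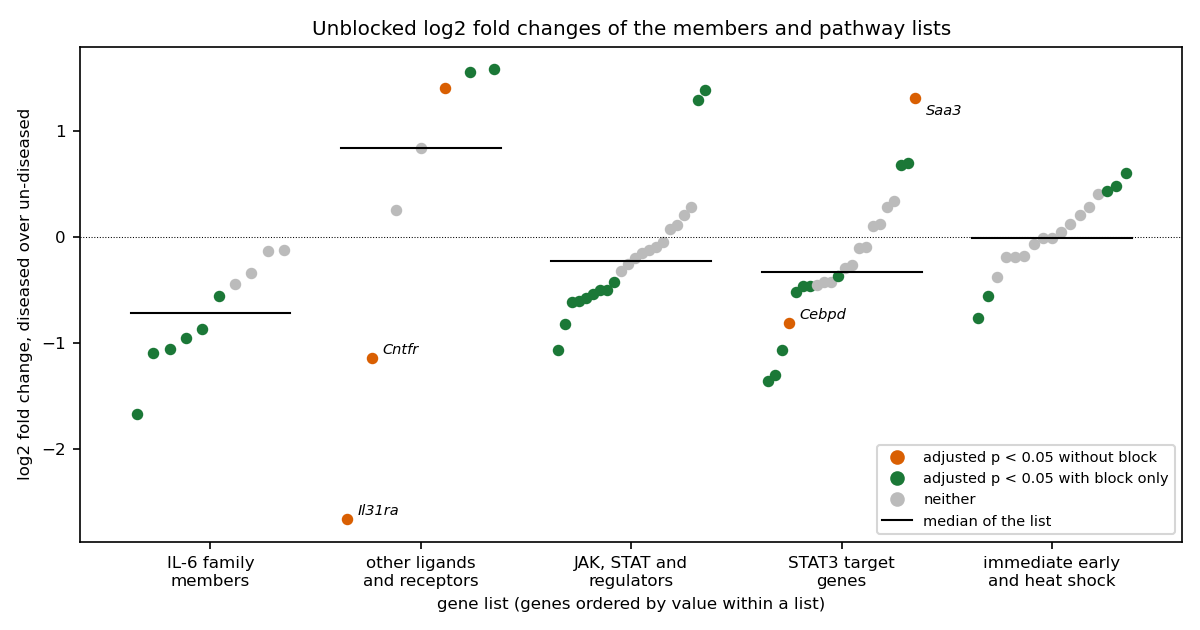
Log2 fold changes, diseased over un-diseased, from the edgeR fit without the block, for the 10 members and the tested genes of 4 lists; colour shows in which fit the adjusted p was under 0.05 and lines are list medians. Among the genes that passed without the block, Saa3 is marked above 0, and Cntfr, Il31ra and Cebpd below.

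Of 22 genes known as STAT3 targets, all tested, 1 rose and 1 fell without the block, where 1.61% of tested genes were called higher and 2.13% lower. With the block 3 rose, near the share of 10.5% over all tested genes, and 8 fell, against 13.3%. The median change was -0.33, against 0.02 over all tested genes. Cebpd, a transcription factor gene induced by IL-6, had 108.6, 113.3 and 157.1 CPM in diseased replicates 1, 2 and 3, against 205.7, 217 and 240.5 CPM in un-diseased replicates 1, 2 and 3, and fell by 0.81 (SE 0.16, adjusted p = 0.0435 by edgeR). Saa3, an acute-phase gene, ran opposite, with 458.7, 518.2 and 865.6 CPM in diseased replicates 1, 2 and 3, against 203.5, 242.9 and 296.7 CPM in un-diseased replicates 1, 2 and 3, a rise of 1.31 (SE 0.27, adjusted p = 0.0438 by edgeR). Both calls without the block were lost when a single sample was left out, except for Cebpd without un-diseased replicate 1 (adjusted p = 0.0434 by edgeR), and both held with the block without each pair (adjusted p up to 0.0204 by edgeR).

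Myc, Ccl2 and Icam1, a growth regulator, a monocyte chemokine and an adhesion molecule, fell with the block. Ccl2 had 179.5, 946.1 and 629.6 CPM in diseased replicates 1, 2 and 3, against 678.4, 1853 and 1782 CPM in un-diseased replicates 1, 2 and 3, the same order within the diseased samples as Il6 and again lowest in replicate 1 of both groups. Its blocked change was -1.46 (SE 0.19, adjusted p = 0.00279 by edgeR). Myc changed by -1.11 (SE 0.13, adjusted p = 0.00223 by edgeR) and Icam1 by -1.48 (SE 0.22, adjusted p = 0.00422 by edgeR), and Icam1 alone of the 3 had groups that did not overlap. All 3 are known to answer to NF-kB as well as to STAT3.

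Immediate early and heat shock genes, which tissue dissociation can raise, were listed because Il6, Lif and Socs3 are also rapidly induced. Without the block edgeR called 0 of 17. Of these 17, 4 reached an unadjusted p under 0.05, a share below the 27.8% of all tested genes, and 3 were higher by DESeq2, against 4.79%. With the block 3 rose, Fos, Dusp1 and Klf6, and 2 fell, Ier3 and Klf4; Klf6 and Klf4 are named after their values were seen. Over all tested genes 10.5% were called higher and 13.3% lower with the block, so the 2 that fell are near that share. Fos, a subunit of AP-1, had 1280, 933.8 and 1236 CPM in diseased replicates 1, 2 and 3, against 933, 617.7 and 712.2 CPM in un-diseased replicates 1, 2 and 3, a blocked change of 0.62 (SE 0.13, adjusted p = 0.0146 by edgeR) that was lost without pair 3 (0.0774). Ier3 changed by -0.73 (adjusted p = 0.00662 by edgeR) with the block. Dusp1 changed by 0.49 (adjusted p = 0.0237 by edgeR) and lost its call without any of the 3 pairs. The summed list lay between 12474 and 14774 CPM in diseased and between 10763 and 16585 CPM in un-diseased samples, highest in un-diseased replicate 1, where Il6, Lif and Il11 were lowest of their group; the part of these genes in the levels of the cytokines was not tested.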

How the data were processed

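RNA of 6 samples was read in pairs on a BGISEQ-500, per the labels' protocols. The authors deposited estimated counts per gene; the submitters' processing notes name HISAT2 2.0.4, RSEM 1.3.1, DESeq2 1.4.5 and GRCm38 without roles. Of the deposited values 9.61% were not whole, and all were rounded. Totals lay between 16720605 and 18290870 per sample. The authors' deposited table also held q-values and log2 ratios per gene (un-diseased divided by diseased), used for comparison only.

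Genes were kept by filterByExpr (least count 10), scaled by TMM and tested across all genes with the quasi-likelihood test of edgeR 4.0.16 (R 4.3.3), diseased minus un-diseased, adjusted after Benjamini and Hochberg, threshold 0.05. The SE is the absolute log2 fold change over the square root of the F statistic. Pair differences are of log2 CPM with a prior count of 2. Alternatives were other scalings and filters, DESeq2 1.42.0, limma-voom (limma 3.58.1), the replicate block and leaving out samples or pairs. The numbers were taken as pairs from the titles and from the correlations of deviations, over 0.1 for each same-numbered pair. Diseased replicate 3 with un-diseased replicate 1 also exceeded 0.1, at 0.14. Samples of a group differed by more than sampling noise (chi-square per gene 25.7 to 62.1). The steps were tested on simulated data.

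Members and lists were chosen with earlier results of these data known. All members are named; from each pathway list up to 3 genes called without and up to 3 more called only with the block are, by smallest adjusted p (where a list has no call, its highest gene). Added after seeing values are Jak1, Stat3, Klf4, Klf6 and the alternatives for pathway genes. Some genes that the lists or the naming choice cover are not reported here. Sequences and positions are RefSeq's (GRCm38.p6).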

Additional observations from a re-analysis of the deposited data

How the results depend on the processing

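All 10 members kept a negative log2 fold change under every setting run, except Socs3, which ran from -0.25 without diseased replicate 3 to 0.021 without un-diseased replicate 3, and 0 members were called higher under any. Against 0 members called lower, upper-quartile factors gave 1 and no filter beyond 1 count gave 1 (Osmr in both), DESeq2 gave 3, the replicate block 6 and DESeq2 with the block 6. Leaving out 1 sample gave 0 to 2 members lower, and the block without pair 1, 2 or 3 gave 5, 6 and 3. Of the pathway list genes, 2 were higher and 3 lower; DESeq2 gave 4 and 8, the block 8 and 19, DESeq2 with the block 6 and 19, and a threshold of 0.01 gave 0 and 0. Leaving out 1 sample gave 0 to 1 higher and 0 to 6 lower, and the block without pair 1, 2 or 3 gave 7, 7 and 6 higher and 15, 16 and 7 lower. Over all genes, 213 were higher and 282 lower. Upper-quartile factors gave 417 higher (and 288 lower, the median of all genes moving to 0.10), DESeq2 635 and 882, the block 1397 and 1770, DESeq2 with the block 807 and 1410, a threshold of 0.01 gave 2 and 2, and a least fold of 2 gave 82 and 135. Leaving out 1 sample gave 2 to 354 higher and 3 to 721 lower, and the block without pair 1, 2 or 3 gave 1013, 809 and 426 higher and 1556, 1274 and 583 lower. The other settings kept these counts within 1.5 times. The cause of these shifts was not tested. With 3 samples a group, single samples decide unblocked calls; depth limits Il31ra, Ctf1 and Il11ra2, which had few counts.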
